A study of Mus musculus with 23 samples.

Results

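The visual cycle genes described here are 9 mouse genes of the 52143 in the deposited gene table, taken by symbol: Abca4, Rdh8, Rdh12, Rbp3, Rdh5, Rpe65, Lrat, Rgr and Rrh. They were followed through 23 RNA sequencing libraries of retinal organoids, which are retina-like tissue grown in culture from stem cells. Every library came from a single clone of induced pluripotent stem cells, reprogrammed from fibroblasts of embryonic Nrl-GFP mice that are wild type apart from this rod reporter. Neural retina was dissected from the organoids before RNA was extracted. The groups differed in day, in what was given with the albumin and in FGF1. From day 10 the organoids received bovine serum albumin (BSA) alone, linoleic acid (LA) on BSA, or docosahexaenoic acid (DHA) on BSA, both fatty acids at a common concentration. Day 26 had 2 libraries in each of these media without FGF1. Day 32 without FGF1 had 3 libraries in each. Day 32 with FGF1, given at 200 ng/ml from day 26, had 3 libraries in BSA, 3 in LA and 2 in DHA. All groups shared a medium with 500 nM 9-cis retinal from day 10, and at day 26 amino acids, a B27 supplement without vitamin A and serum were added. A difference between day 26 and day 32 with FGF1 therefore holds age, the change of medium and FGF1, which cannot be told apart here.

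In the vertebrate eye, light turns the 11-cis retinal bound to opsin into all-trans retinal, and the visual cycle turns it back. In the photoreceptor, ABCA4 moves retinal out of the outer segment disc, and the dehydrogenases RDH8 and RDH12 reduce all-trans retinal to retinol. RBP3 (interphotoreceptor retinoid-binding protein), which photoreceptors secrete, carries retinoids across the space to the pigment epithelium. There LRAT makes retinyl esters, RPE65 isomerises them to 11-cis retinol, and RDH5 oxidises this to 11-cis retinal. RGR and RRH (peropsin) are opsins of the pigment epithelium that bind all-trans retinal, and RGR is also made by Müller glia.

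The libraries fell into 12 deeper ones, with 16029580 to 20510550 counts, and 11 shallower ones, with 10405663 to 11888224. Every day 26 library was deeper, as were replicates 1 and 2 from the FGF1 groups. The shallower set comprised the 9 libraries grown to day 32 in the absence of FGF1, plus the third FGF1 replicate in BSA and in LA. The authors left 5 of the shallower libraries out of their normalized table, namely replicate 1 of each day 32 medium without FGF1 and both FGF1 libraries of the set. Levels were scaled and tests were run only within a set. Nothing in the labels says that replicates came from separate differentiations, so the p values measure the spread between these libraries, which may be technical.

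The promoters of the photoreceptor-side genes are shown because these genes moved together between the states of the deeper set. Rpe65 and Rrh are shown beside them as the pigment epithelium genes with the lowest and with a changed level. Each window runs from 250 bases before to 50 bases after the RefSeq start site (GRCm38.p6), on the gene's strand, and all 9 genes had one. Capitals mark TAATCC or its reverse complement GGATTA, which OTX family factors such as CRX bind, and TGCTGA or its reverse complement TCAGCA, the core of the Maf recognition element that NRL binds. No capitals overlap one another. The windows are chr3:122044210-122044509, plus strand, for Abca4, chr14:33953753-33954052, plus strand, for Rbp3, chr9:20818244-20818543, plus strand, for Rdh8, chr12:79208663-79208962, plus strand, for Rdh12, chr3:159598931-159599230, plus strand, for Rpe65 and chr3:129822456-129822755, minus strand, for Rrh.
Abca4: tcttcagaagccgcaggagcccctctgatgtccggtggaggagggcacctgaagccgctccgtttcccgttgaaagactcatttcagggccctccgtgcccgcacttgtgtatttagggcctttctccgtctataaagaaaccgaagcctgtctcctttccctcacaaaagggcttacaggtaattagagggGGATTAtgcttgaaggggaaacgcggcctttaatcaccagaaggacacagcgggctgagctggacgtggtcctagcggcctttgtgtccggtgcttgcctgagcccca
Rbp3: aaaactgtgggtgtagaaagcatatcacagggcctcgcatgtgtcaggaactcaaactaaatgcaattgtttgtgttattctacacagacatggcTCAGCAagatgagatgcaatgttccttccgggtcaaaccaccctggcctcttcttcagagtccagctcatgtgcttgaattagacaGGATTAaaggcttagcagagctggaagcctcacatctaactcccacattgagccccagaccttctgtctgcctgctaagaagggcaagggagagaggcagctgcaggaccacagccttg
Rdh8: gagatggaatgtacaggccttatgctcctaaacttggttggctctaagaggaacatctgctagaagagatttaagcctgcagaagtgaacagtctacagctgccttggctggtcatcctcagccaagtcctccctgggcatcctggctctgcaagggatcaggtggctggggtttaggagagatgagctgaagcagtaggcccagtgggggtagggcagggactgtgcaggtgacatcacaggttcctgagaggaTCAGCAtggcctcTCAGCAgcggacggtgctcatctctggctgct
Rdh12: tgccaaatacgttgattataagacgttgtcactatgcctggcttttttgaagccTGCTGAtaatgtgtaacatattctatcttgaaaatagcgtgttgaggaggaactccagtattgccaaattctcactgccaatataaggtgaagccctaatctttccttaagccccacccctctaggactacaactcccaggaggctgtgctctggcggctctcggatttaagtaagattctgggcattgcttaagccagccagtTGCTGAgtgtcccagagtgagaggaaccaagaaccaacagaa
Rpe65: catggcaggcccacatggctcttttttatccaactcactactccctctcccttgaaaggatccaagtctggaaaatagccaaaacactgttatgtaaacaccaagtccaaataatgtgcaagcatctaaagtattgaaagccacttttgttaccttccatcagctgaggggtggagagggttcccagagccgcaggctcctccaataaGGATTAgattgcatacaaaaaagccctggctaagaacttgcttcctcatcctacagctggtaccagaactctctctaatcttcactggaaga
Rrh: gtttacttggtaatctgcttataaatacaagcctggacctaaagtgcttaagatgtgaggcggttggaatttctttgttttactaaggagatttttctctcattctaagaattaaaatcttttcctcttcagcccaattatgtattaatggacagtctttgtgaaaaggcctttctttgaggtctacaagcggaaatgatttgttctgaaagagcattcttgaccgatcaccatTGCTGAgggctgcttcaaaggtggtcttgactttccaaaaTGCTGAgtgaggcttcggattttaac

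TAATCC in either direction was in 4 of the 9 windows, those of Abca4, Rbp3, Rpe65 and Rgr, against 7.06% of all 32851 RefSeq windows of this length. In Abca4, Rbp3 and Rpe65 it starts 58, 69 and 42 bases before the start site. TGCTGA was in 4 of the 9, those of Rdh8, Rdh12, Rbp3 and Rrh, against 19.5% of all windows, and in Rdh8, Rdh12 and Rrh it occurs at 2 places. CACGTG, the E-box that MITF binds, was in 0 of the 9 and in 7.15% of all windows. Rdh8 and Rdh12, which moved most, hold no TAATCC here, and Rpe65, which was at or near 0, does. A match describes letters only and shows no binding.

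Per transcript length, Rbp3 and Abca4 stood above all the other members in the deeper set at day 26, and Rgr, Lrat and Rpe65 stood below them all. In TPM (counts per base of transcript, scaled to the same total in each library), computed here from the deposited transcript counts, the mean at day 26 was 1136 ± 213 (SD, n = 6) for Rbp3, 209 ± 44.7 for Abca4, 40.8 ± 9.13 for Rdh8 and 31.5 ± 6.59 for Rdh12. Next came Rdh5 at 18.8 ± 1.59 TPM and Rrh at 18.2 ± 5.28 TPM. Rgr, at 0.810 ± 0.756 TPM, and Lrat, at 0.271 ± 0.148 TPM, were lower still. At day 26 the ranges overlapped between Rdh8 and Rdh12, between Rdh12 (20.8 to 37.5 TPM) and both Rdh5 (17.2 to 20.9) and Rrh (13.7 to 28.1), between Rdh5 and Rrh, and between Rgr and Lrat. At day 32 with FGF1 in the deeper set the order was Rbp3 at 2252 ± 617 TPM (SD, n = 6), Abca4 at 404 ± 63.6, Rdh12 at 264 ± 63.9, Rdh8 at 113 ± 15.3, Rrh at 32.8 ± 4.95 and Rdh5 at 22.0 ± 5.53. Rrh (26.9 to 39.8 TPM) and Rdh5 (15.9 to 31.2) overlapped there too. Rdh12 stood above Rdh8 with no overlap (212 to 383 against 96.6 to 134 TPM), while its range met that of Abca4.

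**Figure D1:**
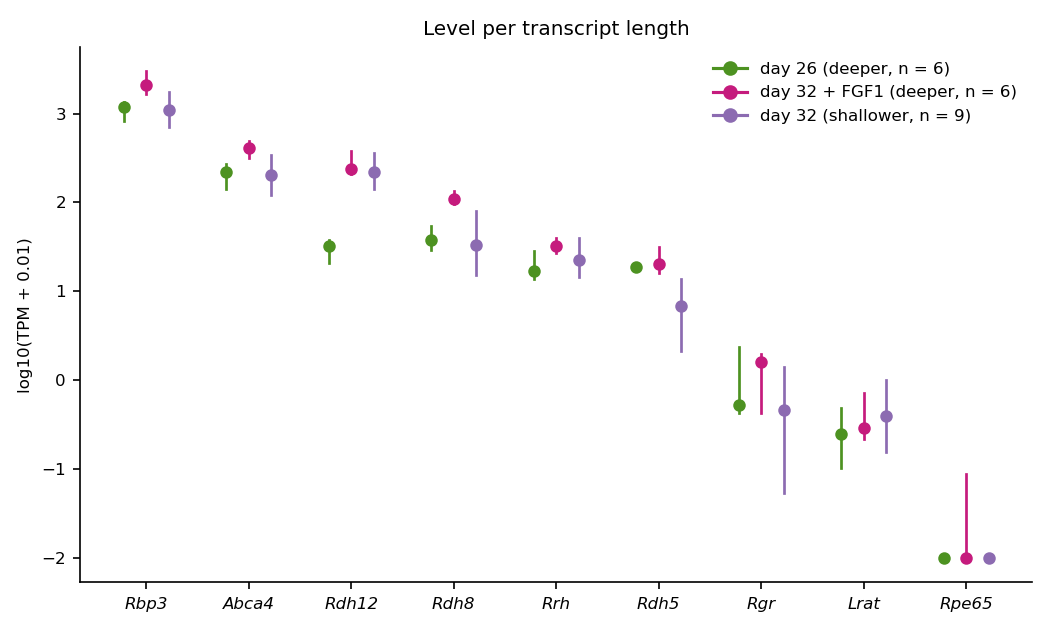
Level of each gene per transcript length, as log10 of TPM plus 0.01, with the gene on the horizontal axis. Points are medians and lines run from the lowest to the highest library of day 26 (n = 6) and day 32 with FGF1 (n = 6) in the deeper set and of day 32 without FGF1 (n = 9) in the shallower set. Rbp3 has the highest and Rpe65 the lowest median in all 3 states.

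Between day 26 and day 32 with FGF1, the photoreceptor-side genes rose, and most of the pigment epithelium genes did not pass the test. Of the 8 members that passed the low-count filter, 5 were higher and 0 lower at an adjusted p under 0.05 (edgeR quasi-likelihood test, mean over the 3 media, 6 libraries against 6), against 14.6% of the 20111 genes tested that were higher and 28.7% that changed either way. The 8 had a median log2 difference of 0.72, beside 0.00 over all genes tested. Rdh12, Rdh8, Rbp3 and Abca4 rose, and so did Rrh. Rdh5, Lrat and Rgr did not pass, and Rpe65 was too low to test.

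Rdh12 (chromosome 12, 79208914 to 79222665, ENSMUSG00000021123), which clears retinal in the inner segment, changed most. In CPM (counts relative to the library total, scaled within the set), it stood at 35.0 and 25.7 in BSA, 40.1 and 31.7 in LA and 27.9 and 22.2 in DHA at day 26. At day 32 with FGF1 it stood at 191 and 238 CPM in BSA, 184 and 198 in LA and 205 and 322 in DHA. Every library of the later state was thus above every library of day 26. The log2 difference was 2.88 (SE 0.147), a 7.34-fold rise, with an edgeR adjusted p of 4.03e-07.

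Rdh8 (chromosome 9, 20818503 to 20826117, ENSMUSG00000053773), the dehydrogenase of the outer segment, had 29.4 and 26.5 CPM in BSA, 39.6 and 36.2 in LA and 26.5 and 24.4 in DHA at day 26. With FGF1 at day 32 it had 69.6 and 70.7 CPM in BSA, 64.6 and 64.6 in LA and 89.7 and 84.2 in DHA. The states did not overlap, and LA, the highest medium at day 26, was the lowest at day 32. Over the media the log2 difference was 1.29 (SE 0.0805), or 2.44-fold, with an edgeR adjusted p of 1.55e-06.

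Abca4 (chromosome 3, 122044443 to 122180123, ENSMUSG00000028125), the flippase whose loss causes Stargardt disease, had 417 and 421 CPM in BSA, 365 and 383 in LA and 511 and 303 in DHA at day 26. Later values were 688 and 682 CPM in BSA, 547 and 573 in LA and 746 and 822 in DHA. Here too the states did not overlap, though the day 26 library DHA replicate 1 (511 CPM) came close to the lowest day 32 library (547 CPM). The log2 difference was 0.75 (SE 0.121), 1.68-fold, with an edgeR adjusted p of 8.51e-04. Of the 4 genes of the photoreceptor side, Abca4 is the one with annotated genes on its opposite strand, the pseudogenes Gm43158 and Gm43157, and whether the authors counted by strand is not given in the sources used here.

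Rbp3 (chromosome 14, 33954003 to 33964216, ENSMUSG00000041534) had 3319 and 3282 CPM in BSA, 4133 and 3386 in LA and 2590 and 2581 in DHA at day 26. At day 32 with FGF1 it had 4241 and 5735 CPM in BSA, 4542 and 4045 in LA and 7580 and 7261 in DHA. The states overlapped through LA, whose day 32 replicate 2 lay below its day 26 replicate 1, and the DHA libraries were the lowest of day 26 and the highest of day 32. Averaged over media the log2 difference was 0.77 (SE 0.110), 1.70-fold, with an edgeR adjusted p of 3.74e-04.

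**Figure D2:**
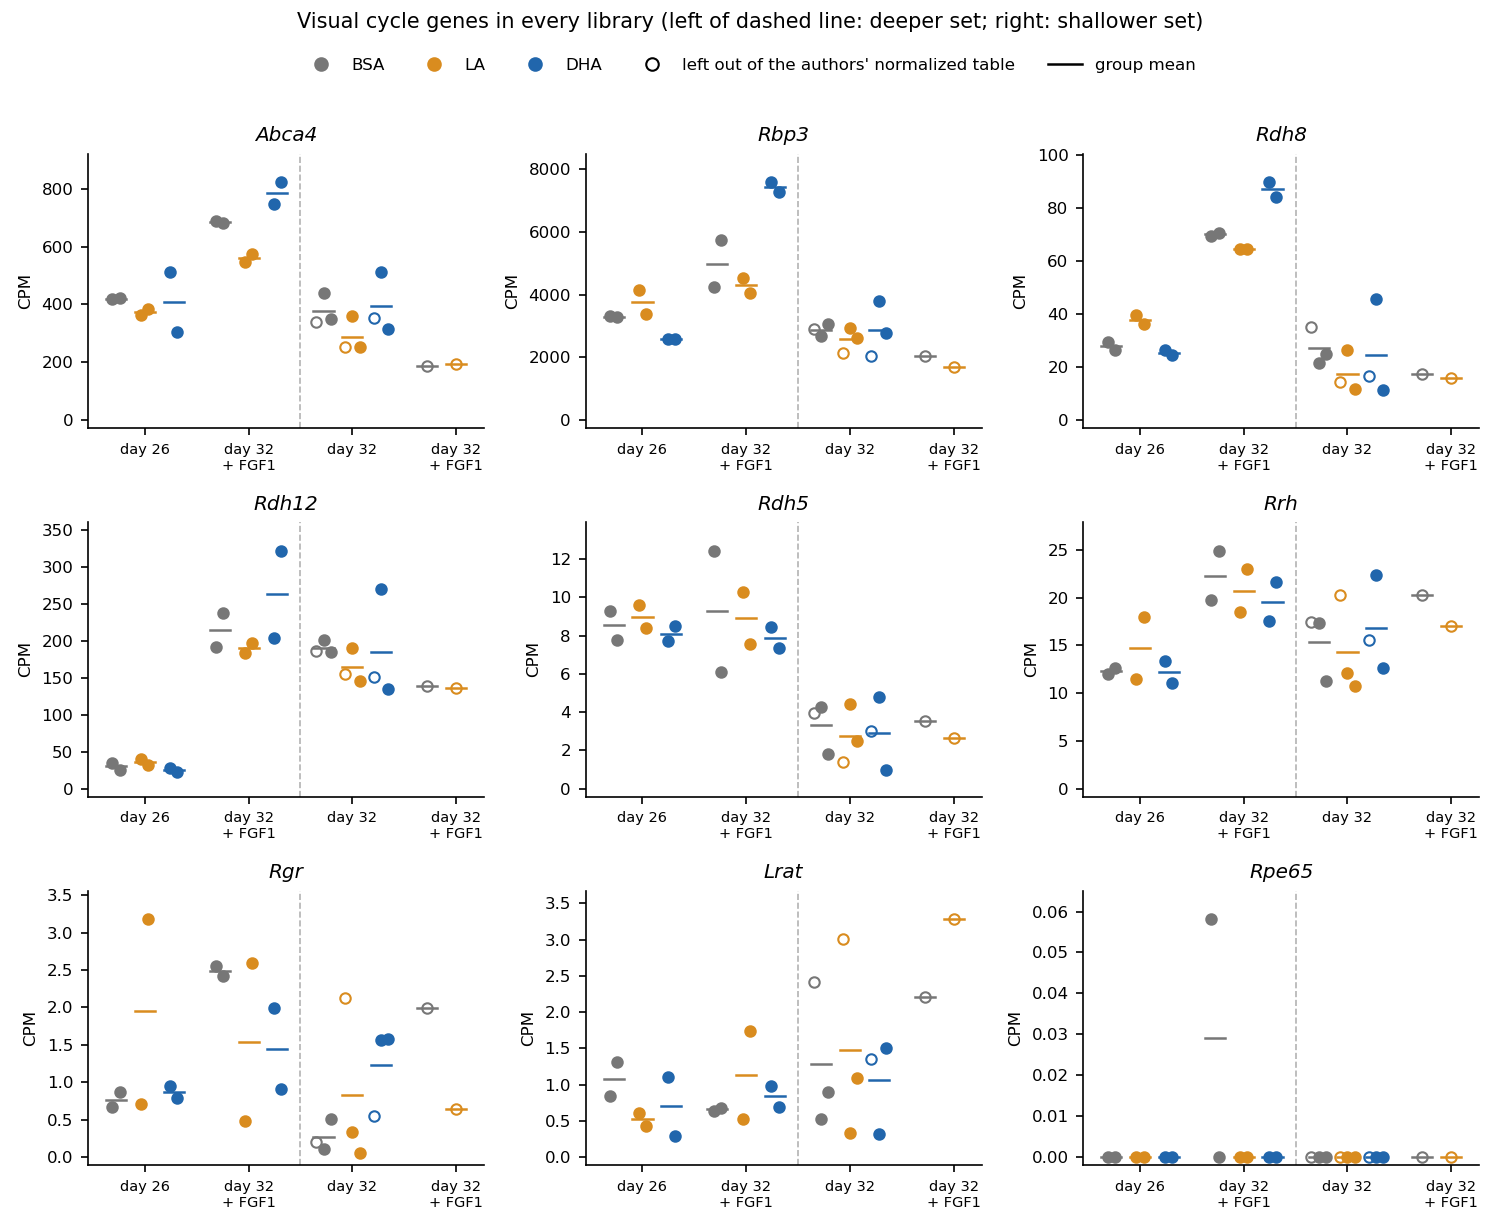
CPM (vertical axis, scaled within each set) of the 9 genes in every library, by state and medium. Points are libraries, open points are the libraries the authors left out, short lines are group means and the dashed line parts the deeper from the shallower set, whose levels are not on one scale. In the deeper set Abca4, Rdh8 and Rdh12 do not overlap between the states, and Rpe65 is above 0 in 1 library of 23.

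Among the pigment epithelium genes, only Rrh passed the test between these states. Rrh (chromosome 3, 129804408 to 129822587, ENSMUSG00000028012) had 12.0 and 12.6 CPM in BSA, 11.5 and 18.0 in LA and 13.4 and 11.1 in DHA at day 26, and 19.7 and 24.9 in BSA, 18.5 and 23.0 in LA and 17.5 and 21.6 in DHA at day 32 with FGF1. The day 26 library LA replicate 2 lay above the lowest later one, so that the states overlapped. The log2 difference was 0.68 (SE 0.141), 1.60-fold, with an edgeR adjusted p of 0.00407. Across the 12 deeper libraries log2 CPM of Rrh had a Pearson r of 0.86 with Rdh12, 0.83 with Rdh8, 0.79 with Abca4 and 0.65 with Rbp3, values that hold the difference between the states. In the 11 shallower libraries the r of Rrh with these 4 genes ran from -0.17 for Rbp3 to 0.36 for Rdh8.

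Rdh5 (chromosome 10, 128913593 to 128922888, ENSMUSG00000025350) ran from 7.70 to 9.59 CPM with a median of 8.45 at day 26, and from 6.10 to 12.4 with a median of 8.00 at day 32 with FGF1. The wider later range lay around the early one, and the log2 difference of 0.02 had a 95% interval from -0.37 to 0.42. Rdh5 shares its strand and part of its span with Bloc1s1, so reads could be split between the 2 genes.

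Lrat (chromosome 3, 82892579 to 82903973, ENSMUSG00000028003), with 5.04 to 29.5 counts in each deeper library, had 0.292 to 1.31 CPM at day 26 and 0.530 to 1.73 at day 32 with FGF1. Its log2 difference of 0.23 had an interval from -0.63 to 1.09. Rgr (chromosome 14, 37034909 to 37048964, ENSMUSG00000021804), with 8.23 to 58.9 counts, had 0.665 to 3.18 CPM at day 26 and 0.481 to 2.59 later, and a log2 difference of 0.68 with an interval from -0.28 to 1.65. At these depths neither gene could show a difference smaller than about its interval, and over all 23 libraries Rgr in the gene table was 0.497 to 4.52 times the sum of its transcripts, so its single values are uncertain.

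Rpe65 (chromosome 3, 159599175 to 159625321, ENSMUSG00000028174), the isomerase that the cycle cannot run without, was at 0 in 22 of the 23 libraries. The exception was BSA with FGF1 replicate 1 at day 32, with 0.0582 CPM, which is less than 1 estimated count. A count of 0 allows up to 3 counts, which is 0.146 to 0.288 CPM at the depths of these libraries, counting error only. Any Rpe65 RNA was thus likely below that limit in a given library at 0, though among 22 libraries an exception is possible.

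Pigment cell markers were measured beside these genes, because the dissected neural retina can carry pigmented cells. The summed level of 11 markers ran from 28.0 to 218 CPM at day 26 and from 21.2 to 139 at day 32 with FGF1, overlapping ranges. Of the 9 markers tested, 3 fell and 0 rose: Pmel by 2.53, Tyrp1 by 2.34 and Tyr by 2.03 on the log2 scale, genes of melanin synthesis, with edgeR adjusted p of 0.00673, 0.0155 and 0.0125. By medium, 0 of the 9 passed in BSA (median -0.45), 0 in LA (-0.12, with 3 of 9 positive) and 5 fell in DHA (-2.40). The calls by medium were thus all in DHA. The difference in DHA minus that in LA had a median of -2.01, and minus that in BSA of -1.95, and 0 of the 9 passed in either. The list's median over media was -1.04, and no marker was at 0 in every library. Best1, a channel of mature pigment epithelium, ran from 0.0457 to 0.653 CPM over the deeper libraries and did not pass the low-count filter. Transcripts of pigment cell genes were thus present in libraries where Rpe65 was at 0. The fall of these markers went the opposite way to Rrh, and their part in any member's value was not tested. In bulk RNA, fewer cells of a type and less RNA per cell cannot be told apart.

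Other genes of retinoid handling moved in both directions between the states. Of 15 genes in this list 14 were tested, and 5 were higher and 3 lower, with a median log2 difference of 0.12 beside 0.00 over all genes. Rlbp1, the 11-cis retinoid carrier of pigment epithelium and Müller glia, rose 4.08-fold (log2 2.03, SE 0.184, edgeR adjusted p = 1.82e-05), from 43.9 to 131 CPM at day 26 to 305 to 400 CPM later. Dhrs3, a retinal reductase, rose by log2 1.37, and Rdh10, a retinol dehydrogenase, by 0.56. Rbp4, the blood carrier of retinol, fell by 2.71, its receptor Stra6 fell by 1.55, and Rdh11 fell by 0.34. Rbp4 ran from 7.16 to 10.7 CPM at day 26 and from 0.688 to 2.33 CPM later, without overlap. Stra6 ran from 7.54 to 13.0 CPM and then from 1.71 to 8.58 CPM, with overlap.

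The rise of the photoreceptor-side members went with that of other photoreceptor genes. Among 15 photoreceptor markers 11 rose and 1 fell, with a median log2 difference of 1.18. Their summed level ran from 4999 to 7439 CPM at day 26 and from 9234 to 15089 at day 32 with FGF1. Recoverin (Rcvrn) rose by log2 4.33, the rod transducin Gnat1 by 4.62, the rod channel Cnga1 by 2.82 and the chaperone Aipl1 by 2.15, while the early photoreceptor factor Prdm1 fell by 1.99. The factors Crx, Nrl and Nr2e3, of the same list and chosen after their values were seen, had log2 differences of 0.06, 0.23 and 0.05 that did not pass. The short-wave cone opsin Opn1sw fell by 2.56. Of 10 Müller glia markers 6 rose and 0 fell, by 3.72 for Kcnj10, 2.32 for Slc1a3, 2.03 for Rlbp1, 1.29 for Clu, 1.26 for Aqp4 and 0.58 for Car14. Of 6 mesenchyme markers 1 changed, Pdgfra, higher by 1.33, and of 5 ciliary margin and 5 choroid plexus markers none passed in this edgeR test of the mean over media. Those with the smallest p were Zic1 and Wfdc1 (-0.68 and 0.86) for the former and Kcne2 and Ttr for the latter (edgeR adjusted p of 0.132 and 0.328). Gja1 came next among the ciliary margin markers, at -0.90, and Wfdc1 was the 1 of these 5 with a positive difference. The part of cell makeup in the members' rise was not tested.

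**Figure D3:**
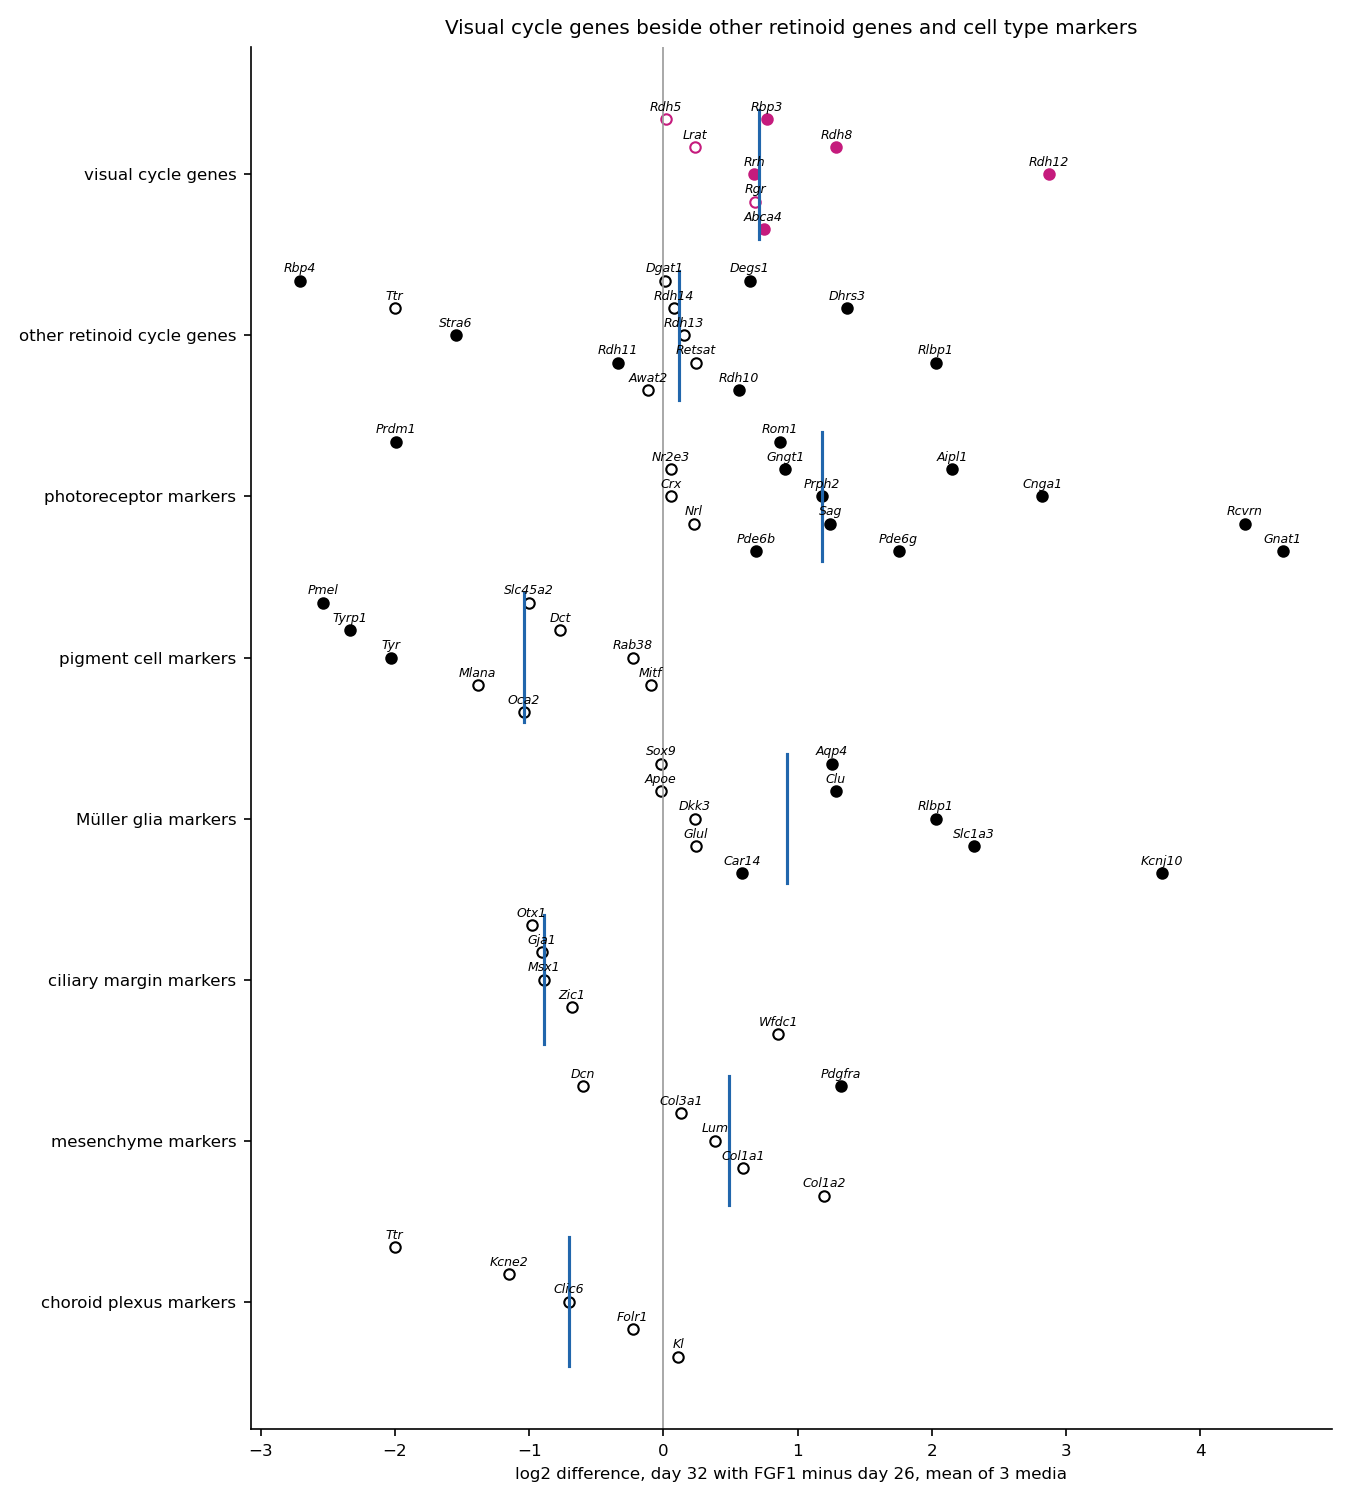
Log2 difference of tested genes between day 32 with FGF1 and day 26 (mean of 3 media, horizontal axis), with 1 band per gene list. Filled points have an adjusted p under 0.05, vertical blue bars are medians over all tested genes of a list, some of which are not drawn, and Rlbp1 and Ttr appear in more than 1 list. All 5 filled visual cycle genes lie right of 0, and the filled pigment cell markers lie left of it.

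Taken medium by medium, the rise was measured in 2 libraries against 2. In BSA 2 members rose, Rdh12 and Rdh8, where 4.25% of all genes tested were higher and 2.58% lower (6.83% changed). In LA Rdh12 and Rdh8 rose, against 3.34% of genes higher and 1.81% lower (5.16% changed). In DHA 4 members rose, Rdh12, Rdh8, Rbp3 and Abca4, against 6.08% of genes higher and 4.28% lower (10.4% changed). In the same DHA comparison 5 of 9 pigment cell markers fell, with log2 differences from -5.74 for Tyr to -1.78 for Dct and with Tyrp1, Pmel and Oca2 between them. Of 5 ciliary margin markers 3 fell there, with -2.79 for Otx1, -2.75 for Gja1 and -1.71 for Zic1, and in BSA and LA no marker of either list passed. The part of these markers in the rise of the members was not tested. Rdh12 rose by log2 2.82 in BSA, 2.41 in LA and 3.39 in DHA. For Rdh8 the values were 1.33, 0.77 and 1.77, and for Rbp3 0.60, 0.19 and 1.52, where those in BSA and LA did not pass (edgeR adjusted p of 0.0857 and 0.635). Abca4 had 0.71, 0.58 and 0.95, with those in BSA and LA again not passing (0.0660 and 0.144). The call of Abca4 in DHA was lost without the day 26 library DHA replicate 2 (log2 0.62) or the day 32 library DHA replicate 2 (0.88). That of Rdh8 in LA was lost without replicate 2 of either LA group (0.70 and 0.77). In 1 fit of all 23 libraries Rdh8 passed in no medium (edgeR adjusted p of 0.233 in BSA, 0.717 in LA and 0.0543 in DHA). The call of Abca4 in DHA was lost there too (edgeR adjusted p = 0.0613). Rrh had 0.86, 0.49 and 0.68 and passed in no medium. In BSA, where its edgeR adjusted p was 0.0577, it passed in 5 of 18 alternatives: with the replicate number as a block (0.85, adjusted p = 0.0365), with DESeq2, without the low-count filter and without either day 26 LA library.

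**Figure D4:**
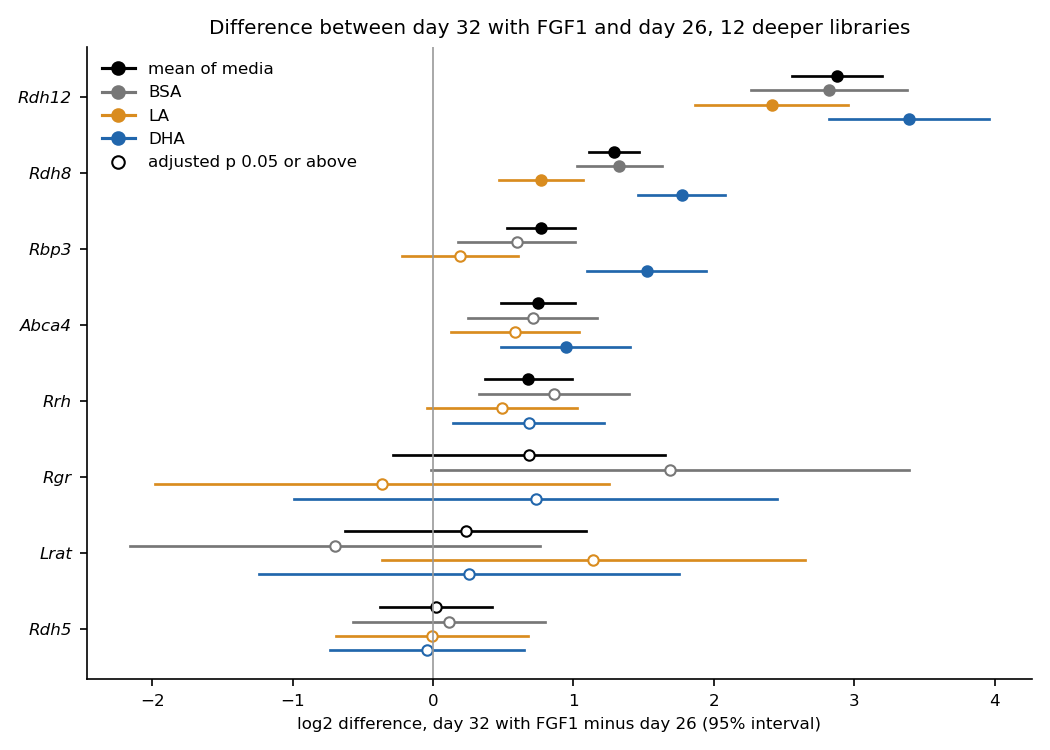
Log2 difference between day 32 with FGF1 and day 26 with its 95% interval (horizontal axis) for the 8 genes tested, in the mean of the media and in each medium, over the 12 deeper libraries. Filled points have an adjusted p under 0.05. The DHA point lies right of the LA point for Rdh12, Rdh8, Rbp3 and Abca4.

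The estimated rise was larger in DHA than in LA for each of the 4 photoreceptor-side genes, but the difference of the rises did not pass the test over all genes. It was log2 1.33 for Rbp3 (95% interval 0.74 to 1.92), 1.00 for Rdh8 (0.58 to 1.43), 0.98 for Rdh12 (0.24 to 1.72) and 0.36 for Abca4 (-0.28 to 1.01), with edgeR adjusted p of 0.493, 0.493, 0.642 and 0.938. No gene of the 20111 passed this test (0%), although 1272 had an unadjusted p under 0.05, and DESeq2 called 63 genes with Rbp3 and Rdh8 among them. Both ends of the difference contributed. At day 26 DHA was below LA, by 0.54 for Rbp3, 0.57 for Rdh8 and 0.51 for Rdh12 on the log2 scale, with Abca4 at 0.12 above. At day 32 with FGF1 DHA was above LA, by 0.79 for Rbp3 (interval 0.37 to 1.21, edgeR adjusted p = 0.274), 0.49 for Abca4, 0.46 for Rdh12 and 0.43 for Rdh8. None of the members passed in either, where 0% and 0.00994% of genes did (638 and 1530 at an unadjusted p under 0.05), and DESeq2 called 0 members in the first and 1, Rbp3, in the second.

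Summed markers of other cells stood at different levels in DHA and LA in the later state, although no single pigment cell, ciliary margin or mesenchyme marker passed the edgeR test between them. In DHA with FGF1 the summed pigment cell markers were 21.2 to 28.0 CPM against 81.8 to 139 in LA, ciliary margin markers were 20.6 to 26.9 against 107 to 112, and mesenchyme markers were 26.5 to 60.6 against 117 to 450. BSA with FGF1 had 33.3 to 54.4, 22.7 to 57.9 and 35.1 to 52.6 CPM of these lists. It was thus below LA in each, and overlapped DHA in the ciliary margin and mesenchyme markers. Photoreceptor markers were 11919 to 15089 CPM in DHA and 9234 to 10048 in LA, and 14 of 15 had a positive difference though none passed. The rise in DHA minus that in LA was positive for 15 of 15 photoreceptor markers, with a median of log2 1.01. At day 26 DHA minus LA was positive for 1 of the 15, with a median of -0.57. No photoreceptor marker passed in either. The part of these lists in the members' values was not tested.

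Each fatty acid was also compared with BSA. DHA exceeded BSA at day 32 with FGF1 by log2 0.57 for Rbp3 (interval 0.16 to 0.99) and 0.31 for Rdh8 (0.01 to 0.61), and LA exceeded BSA at day 26 by 0.44 for Rdh8 (0.14 to 0.74). In these comparisons, and in DHA against BSA at day 26 and LA against BSA at day 32 with FGF1, no member passed in edgeR or in DESeq2. The share of genes called was 0%, 0%, 0% and 0.0149%, with 546, 356, 252 and 692 genes at an unadjusted p under 0.05. The rise in DHA minus that in BSA was 0.93 for Rbp3 (0.34 to 1.51), and that in LA minus that in BSA was -0.56 for Rdh8 (-0.98 to -0.13). Neither these nor any other member passed there (0% of genes each, 443 and 420 at an unadjusted p under 0.05, and 0 and 3 in DESeq2).

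In the shallower set at day 32 without FGF1, Abca4 ran from 251 to 513 CPM with a median of 350 (n = 9), Rbp3 from 2049 to 3786 with a median of 2761, Rdh12 from 135 to 271 with a median of 185, and Rdh8 from 11.4 to 45.8 with a median of 21.5. For each of these 4 genes the highest library was DHA replicate 2. Set beside the deeper libraries, Rdh12 was above all day 26 values, while Rdh8, Abca4 and Rbp3 overlapped the day 26 ranges, and Rdh5, at 0.991 to 4.77 CPM, was below them. These values are not a test, since the set and the day, with its change of medium, cannot be told apart between these libraries. Rrh ran from 10.7 to 22.4 CPM, Lrat from 0.315 to 3.01 and Rgr from 0.0564 to 2.12.

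No member passed between media at day 32 without FGF1 (0% of 18029 genes in each of 3 comparisons, 291 to 359 genes at an unadjusted p under 0.05, 7 to 9 in DESeq2). DHA minus LA was log2 0.39 for Abca4 (95% interval -0.11 to 0.89) and 0.15 for Rbp3 (-0.34 to 0.63). The interval of Abca4 holds the 0.49 found with FGF1. That of Rbp3 ends below the 0.79 found there, but overlaps the interval of that value, 0.37 to 1.21. Whether the difference between DHA and LA depends on FGF1 was not tested, since the libraries with and without it lie in different sets.

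The 2 shallower libraries with FGF1 had the lowest Abca4 of their set, at 186 CPM in BSA and 195 in LA. They had 2055 and 1708 CPM of Rbp3, 138 and 136 of Rdh12 and 17.4 and 15.9 of Rdh8. Replicates 1 and 2 of the same labelled groups, in the deeper set, had 547 to 688 CPM of Abca4 on that set's own scale. Within the shallower set the FGF1 term was log2 -0.62 for Abca4 (interval -1.22 to -0.01, edgeR adjusted p = 1.00) and -0.31 for Rbp3 (-0.89 to 0.27). No member and 0% of genes passed, with 342 genes at an unadjusted p under 0.05 and 7 in DESeq2. Both of these libraries are among those left out by the authors. Their summed mesenchyme markers were 231 and 285 CPM, against 27.8 to 134 in the other 9 libraries of the set, and the part of this in the members' values was not tested.

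Left-out against kept libraries, with medium and FGF1 as terms, gave 57 genes (0.316%) and no member. Lrat came nearest, at log2 1.52 (interval 0.25 to 2.78, edgeR adjusted p = 0.906). It had 1.36 to 3.01 CPM in the 3 left-out libraries without FGF1 and 0.315 to 1.50 in the 6 kept ones, from 4.00 to 31.8 counts a library. Rbp3 was at 2049 to 2891 CPM in these 3 and 2630 to 3786 in the 6, overlapping ranges with a log2 difference of -0.34 (-0.78 to 0.10).

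The deposited transcript counts show which transcripts stood behind these levels. Rbp3, Rdh8 and Lrat have 1 annotated transcript each. For Rdh12 the coding transcript Rdh12-201 took 75.5% of the counts in the deeper and 77.2% in the shallower set, and Rdh12-204, which keeps an intron, took 23.5% and 22.0%. For Abca4 the full-length Abca4-201 (7263 bases) took 71.6% and 83.4%, and the shorter coding Abca4-207 (3606 bases) took 16.9% and 0.654%. Abca4-207 had 1060 to 2368 counts in every deeper library and 0 to 142 in the shallower ones, ranges far apart. Within the deeper set its share was 16.4% to 21.7% at day 26 and 13.5% to 18.0% at day 32 with FGF1. The 2 shallower FGF1 libraries, which share their labelled groups with deeper ones, had 0% and 1.51%.

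Counts of Rrh and Rdh5 were spread over several forms. Rrh had 8 transcripts, none above 17.9% of the deeper counts, and coding forms together took 47.8% at day 26 and 47.8% at day 32 with FGF1, so this share was alike in both states. In the shallower set without FGF1 the coding share was 58.4%. Rdh5-201, the full-length form of Rdh5, took 26.2% of its deeper and 12.3% of its shallower counts, and the intron-retaining Rdh5-207 took 29.6% and 31.4%. The coding Rrh-202 and the noncoding Rrh-204, of equal length, held identical counts (9.96% of the deeper counts each), so the split of Rrh between coding and other forms is uncertain by that much.

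**Figure D5:**
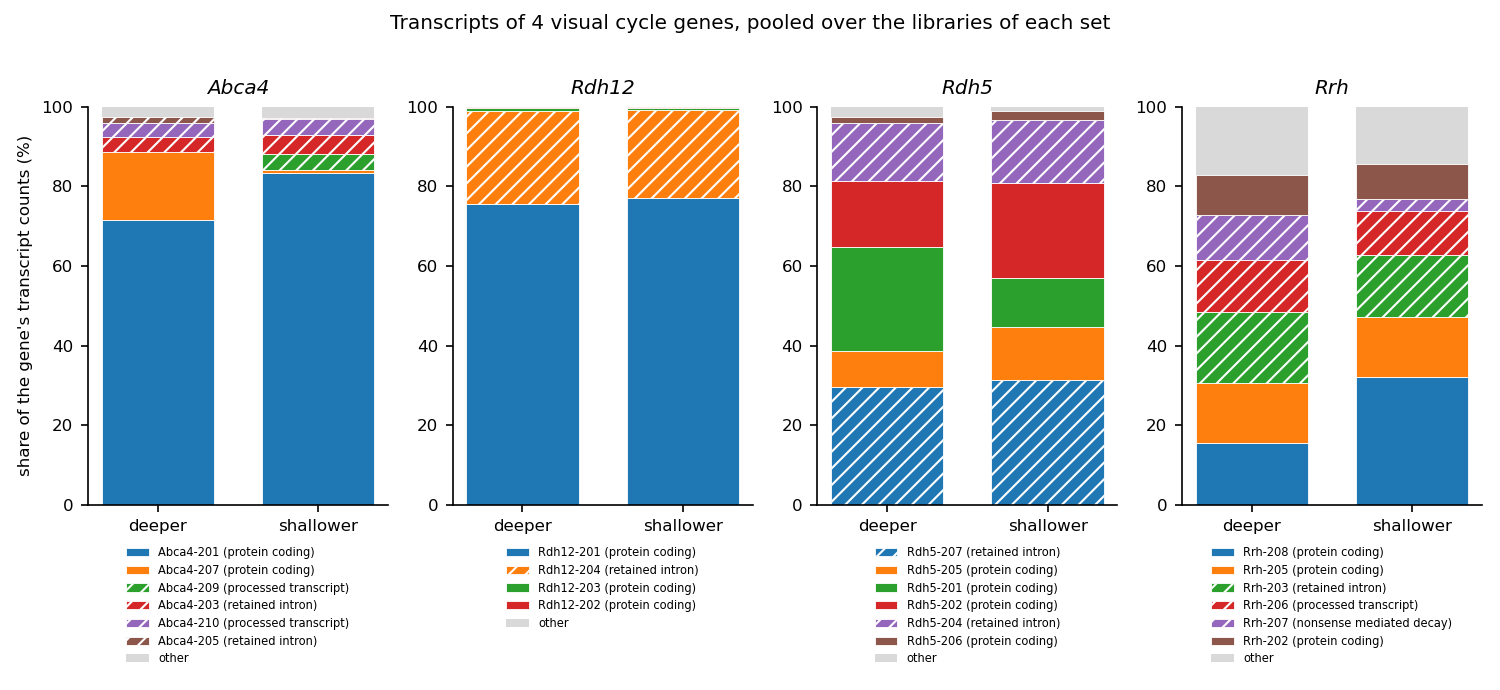
Share of each gene's transcript counts (%, vertical axis) taken by its leading transcripts, pooled over the 12 deeper and over the 11 shallower libraries, for Abca4, Rdh12, Rdh5 and Rrh. Hatched parts are transcripts not annotated as protein coding, and grey is all others. Abca4-207 holds 16.9% of the deeper and 0.654% of the shallower counts, whereas the Rdh12 shares are alike.

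The genes most like each member were ranked by the lower of 2 Pearson correlations of log2 CPM, over the 12 deeper and the 11 shallower libraries, among 14078 genes. They were Mpp4, Phlpp2 and Frmpd2 for Abca4 (lower r of 0.92, 0.92 and 0.91), Lad1, Mknk1 and Reep6 for Rdh12 (0.96, 0.95 and 0.95), Mfge8, Dlg4 and Ptp4a3 for Rdh8 (0.96, 0.95 and 0.95), and Icmt, Phlpp2 and Bbs1 for Rbp3 (0.95, 0.92 and 0.91). Phlpp2 was thus near both Abca4 and Rbp3. The best matches of the other genes were weaker: Mest for Rrh (0.80), Med20 for Rdh5 (0.78), Adam17 for Lrat (0.76) and Nlrc5 for Rgr (0.62). Among themselves the 4 photoreceptor-side genes had r of 0.81 to 0.97 in the deeper and 0.63 to 0.89 in the shallower set. These r are descriptions over libraries that share states, media and preparation, and in the deeper set they hold the difference between the 2 states.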

How the data were processed

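RNA of dissected neural retina from 23 organoid samples was sequenced with a stranded, poly(A)-selecting kit, per the labels' protocols. The submitters' processing notes name Trimmomatic 0.36, kallisto 0.45.0, edgeR and GRCm38.p6. The deposited gene and transcript tables hold estimated counts (expected counts that need not be whole), which were rounded here before testing. The gene table is not the plain sum of the transcript table, although library totals agree to a relative 1.3e-11. The deposited normalized table was treated as a signal whose scaling is not fully given in the sources used here. It served only for gene names and positions and for which 18 libraries the authors kept.

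Genes were tested with edgeR 4.0.16 (quasi-likelihood, TMM scaling, filterByExpr) in R 4.3.3 with Benjamini-Hochberg adjustment over all genes and a threshold of 0.05, separately in the 12 deeper libraries (1 mean per group) and in the 11 shallower ones (terms for medium, FGF1 and being left out), giving 18 comparisons. Intervals are 95% intervals. Log2 CPM for correlations used a prior count of 2. TPM was computed from the transcript table. Promoters are from RefSeq (GRCm38.p6). The scripts were tested on simulated data. Alternatives were DESeq2 1.42.0, size factors of its kind in edgeR, no filter on low counts, a replicate block and each library left out. Comparisons of the deeper set were also run with all 23 libraries in 1 fit. Those of the shallower set were also run without the left-out term and, between media, in the 6 kept libraries alone. Transcript sums and the 5 left-out libraries alone were chosen after seeing the data. Figures used matplotlib 3.10.9.

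All 9 members are named. From each gene list the genes named are all that passed where 6 or fewer did, otherwise the 4 with the smallest p in each direction, and the 2 with the smallest p where none passed. Some genes that this rule selects are not reported here. The members and lists were chosen with earlier results of these data known. Replicate numbers are shared between groups. Same-numbered DHA and LA libraries of day 32 lacking FGF1 deviated together (r of 0.296, 0.639 and 0.434 for replicates 1, 2 and 3). This was taken as possible pairing for that comparison, from the data and not from the labels. For the BSA libraries the r ran from -0.264 to 0.25 with LA and from -0.375 to 0.246 with DHA. The values given for DHA against LA without FGF1 are from the fit without a block. The blocked fit, which holds no left-out term, changed no member's call in that comparison.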

Additional observations from a re-analysis of the deposited data

How the results depend on the processing

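Between day 26 and day 32 with FGF1, averaged over media, the same number of members, 5, passed in each of 18 alternatives. Of 804 alternative values of 45 reported ones, 792 kept their direction, 12 reversed, 8 lost and 22 gained a call, and 9 of 13 calls held in every alternative. In 1 fit of all 23 libraries the members called went from 2 to 1 in BSA, from 2 to 1 in LA and from 4 to 2 in DHA. DESeq2 called 5 members in BSA, 2 in the rise in DHA minus that in LA, and 1 in DHA against LA at day 32 with FGF1. Without the low-count filter these were 6, 2 and 1. With libraries left out in turn, members called ran from 1 to 3 in LA and from 3 to 4 in DHA. The cause was not tested. Reversed values were all of differences that did not pass. The Rdh5 difference was -0.000995 with all 23 libraries, -0.00124 with the replicate block, and from -0.177 to 0.164 with 1 library left out, negative in 6 of these. Lrat went from -0.14 to 0.66 and was negative without LA with FGF1 replicate 2. Rrh in DHA minus LA ran from -0.17 to 0.49, Abca4 in DHA against LA at day 26 from -0.31 to 0.46, and Rbp3 in DHA against LA without FGF1 from -0.0488 to 0.30, the lowest without day 26 LA replicate 2, day 26 DHA replicate 1 and day 32 DHA replicate 2.

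Over all genes, counts moved more. The mean rise had 5773 genes called and 2897 with all 23 libraries. Counts ran from 213 to 2665 around 1373 in BSA, from 206 to 2361 around 1037 in LA, and from 687 to 3306 around 2083 in DHA. DHA against LA at day 32 with FGF1 had 2, with 0 to 528 under alternatives, LA against BSA 3, with 0 to 367, and left-out against kept 57, with 31 to 214. Comparisons with 0 genes reached at most 332. Levels moved by over 1 SD on total counts for 2 of 36, Abca4 at 179 and Rdh12 at 129 CPM in the shallower FGF1 libraries. Lrat, Rgr and Rpe65 are limited by depth.

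With the replicate block, 1 member's call changed, Rrh in BSA (0.85), which brought the members called to 3. Genes called became 20 in DHA against LA at day 32 with FGF1, 57 for FGF1 in the shallower set, and 1 each in DHA against BSA and LA against BSA without FGF1. The blocked fit of the shallower set held no left-out term. Its FGF1 term sets left-out libraries against kept ones, so FGF1 and being left out cannot be told apart in the 57 genes. In the deeper set 6 of 15 pairs of groups had a correlation of same-numbered libraries over 0.1, from -0.123 to 0.351. The pairs of FGF1 groups, at 0.232, 0.351 and 0.157, are all among the 6. With 2 replicate numbers and no label that ties them, whether these libraries are paired cannot be settled. Left-out against kept could not be fitted with the block, since replicate number and being left out overlap.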
